A study of Drosophila melanogaster with 19 samples.

Results

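The Cpr genes encode cuticle proteins, and none of them carried a peak of MSL2 in adult males of either line examined. They were chosen by name, as the protein-coding genes of the Release 6 annotation of Drosophila melanogaster whose symbol is Cpr followed by a digit. The rule found 70 genes among 13922 protein-coding genes, counting the X, both arms of chromosomes 2 and 3, and chromosome 4. Of these, 4 lie on the X and 66 on the autosomes. Their values are positions of peaks from chromatin immunoprecipitation sequencing (ChIP-seq) with rabbit antibodies to MSL2, in whole flies aged 3 days. The groups are wt males and males of the line M1[wt], both of the strain Oregon-R per the labels, with 1 sample each. The labels do not say what the M1[wt] line carries, and the study's title concerns the N-terminus of MSL1. The series has 19 samples, and the other 17 were not analysed here.

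Cpr proteins carry the Rebers and Riddiford domain, which binds chitin, and with chitin fibres they build the hard and soft parts of the insect body wall. Epidermal cells secrete them, and many members are switched on around a moult, so that different genes serve the cuticle of larvae, pupae and adults. MSL2 belongs to the dosage compensation complex of Drosophila, which binds active genes of the male X and raises their transcription. A cuticle protein gene on the X is therefore a possible target in males, and one on an autosome lies outside the chromosome that the complex mainly covers.

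The wt list held 3788 peaks on these chromosomes, 1615 of them on the X, and the M1[wt] list held 3935, with 1595 on the X. Each peak has a summit, the base of highest signal, and a −log10 p from the authors, which served only to describe and rank peaks within a list. The number of reads is unknown, and a gene without a peak may still be bound below the level at which a peak was listed. With 1 sample in each group, no difference between the lines was tested, and every share below is a description of these lists. Both lists are named by the submitters for the same male preimmune control, so that they are not independent, and their values stand side by side.

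A gene counted as having a peak if its body, or the 1000 bases on either side, held a summit. On the X, 0 of the 4 Cpr genes had one in wt and 0 of 4 in M1[wt] males. Over all X-linked protein-coding genes the share was 53.7% in wt and 52.0% in M1[wt] males. With 4 genes, 0 leaves an exact (Clopper-Pearson) 95% upper limit of 60.2%. Among the 66 autosomal Cpr genes 0 had one in either list, with an upper limit of 5.44% by the same method. These limits cover counting error alone and treat the genes as independent. The 66 autosomal members lie in only 29 stretches between summits in each list, so their limit is too low. Over all autosomal protein-coding genes the share was 22.3% in wt and 24.1% in M1[wt] males. No member therefore counts as having a peak, and the nearest approach was Cpr67B, with a summit 2574 bases away in wt and 2568 bases away in M1[wt] males.

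Cpr genes are short, and short genes have peaks less often. The autosomal members had a median length of 1055.5 bases, from 457 in Cpr65Ax1 to 18590 in Cpr73D, against 2105 bases for other autosomal genes. The X-linked members ranged from 668 bases in Cpr5C to 2479 in Cpr11A, against a median of 2527 for other X-linked genes. In the shortest of 10 length classes of autosomal genes, up to 707 bases, 6.79% of other genes had a peak in wt and 6.36% in M1[wt] males. In the longest class, from 14025 bases, the shares were 42.4% and 41.4%. When other autosomal genes were weighted to the members' makeup by length class, 16.1% had a peak in wt and 17.9% in M1[wt] males. For 66 genes these shares amount to 10.6 and 11.8 genes with a peak, where the members had 0 and 0.

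The long members show the same as the short ones. Cpr50Ca spans 17888 bases and Cpr73D 18590, both in the longest class, and neither had a summit inside or within 1000 bases. The nearest summit to Cpr50Ca lay 39020 bases away in wt and 36814 in M1[wt] males. That of Cpr73D lay 8380 and 8364 bases away, in CG11905. Cpr50Cb, with 10455 bases, had its nearest summit 21591 and 19385 bases away. In each list that is also the summit nearest to Cpr50Ca, so these neighbours are not separate observations. Cpr62Ba and Cpr76Bc, with 7655 and 6328 bases, had no peak either.

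**Figure D1:**
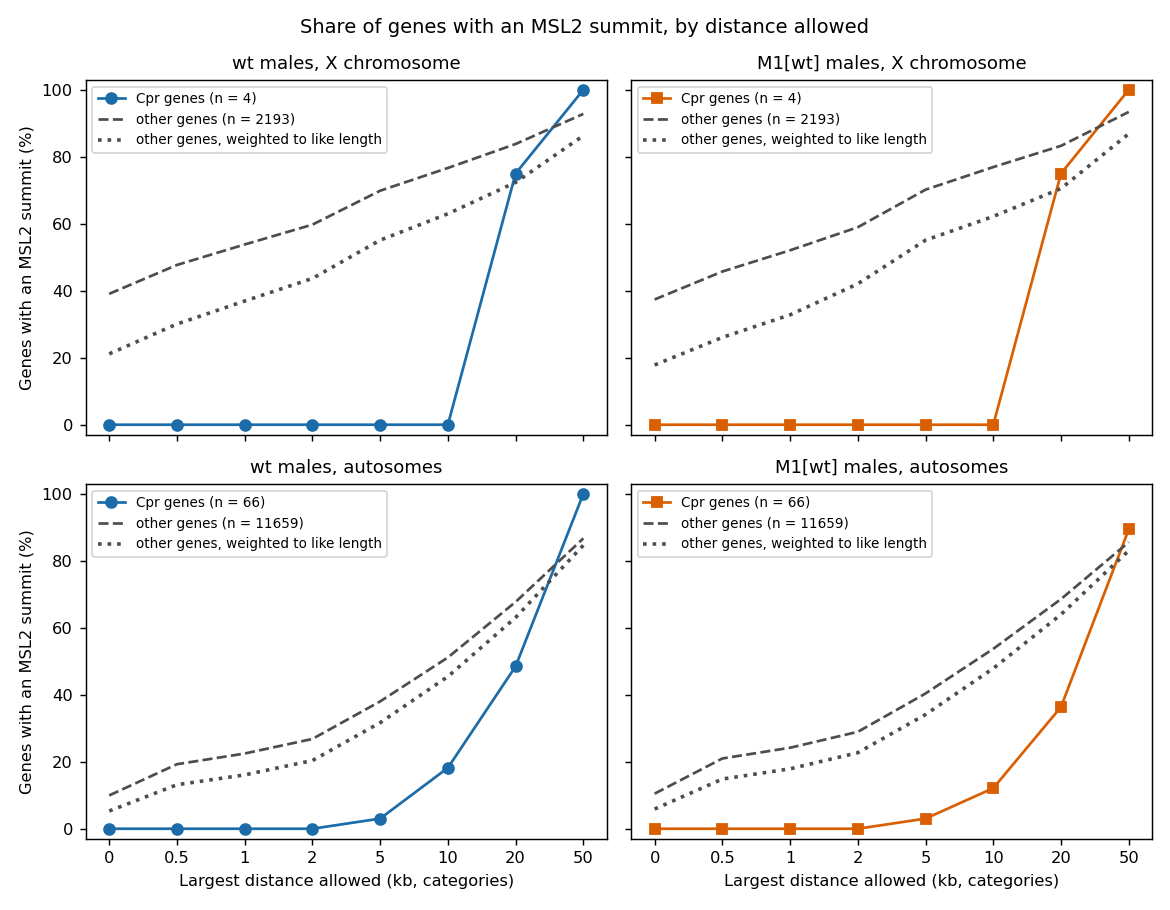
Share of genes (vertical axis, %) with an MSL2 summit in the gene or within the distance on the horizontal axis (kb, evenly spaced categories), for the X (upper panels) and the autosomes (lower panels) in wt males (left) and M1[wt] males (right). Symbols are Cpr genes, dashed lines all other protein-coding genes of the same chromosome class, dotted lines those genes weighted to the members' lengths. The Cpr curves stay at 0 up to 2 kb on the autosomes and up to 10 kb on the X. They cross the dotted curve between 10 and 20 kb on the X and between 20 and 50 kb on the autosomes, and the dashed curve between 20 and 50 kb in every panel.

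On the X all 4 Cpr genes lay more than 10 kb from any summit. Cpr5C (X:5804677-5805344) had its nearest summit 14620 bases away in wt and 15805 in M1[wt] males. Cpr11A (X:12486970-12489448) had it 16679 and 14671 bases away, both in CG42258. Cpr11B (X:12553124-12554235) had it 20718 and 21688 bases away, both in Pits. Cpr12A (X:13543643-13544907) had it 19078 and 19091 bases away, where CG46311 and Tpst, the gene of a tyrosylprotein sulfotransferase, overlap. The order of the 4 genes by distance differs between the lists for Cpr5C and Cpr11A, and Cpr11B is the farthest in both.

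The X-linked members had a median distance of 17878.5 bases in wt and 17448 in M1[wt] males. Other X-linked genes had medians of 644 and 769 bases, and those weighted to like length 3290 and 3388. All 4 members lay beyond the upper quartile of other X-linked genes, which was 8375 bases in wt and 8127 in M1[wt] males. None lay beyond their 90th percentile, and 29.8% (wt) and 32.0% (M1[wt]) of other X-linked genes weighted to like length lay beyond the members' median. Counted in genes the members were not far, with a median of 1.5 genes to the nearest peak-bearing gene in each list against 2 for other X-linked genes without a peak. Cpr11A and Cpr11B had such a gene as a direct neighbour, as did 43.9% (wt) and 46.8% (M1[wt]) of those other genes. Of other X-linked genes of like length 36.9% had a peak in wt and 32.8% in M1[wt] males, which amounts to 1.48 and 1.31 genes of 4. The members also lie in thinly populated parts of the X, with a median of 2 other protein-coding genes within 10 kb on each side against 3 for other X-linked genes. Weighted by local gene density as well as length, in 2 classes of each, the shares were 23.1% and 21.9%. The part of gene density in the absence of peaks at these 4 genes was not tested.

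The stretches without a summit around the X-linked members were longer than the median distance between neighbouring X summits. Cpr11A and Cpr11B lay in the same stretch of 104662 bases in wt and 103624 in M1[wt] males, which held 6 protein-coding genes. Cpr5C lay in one of 82979 and 77068 bases with 10 genes, and Cpr12A in one of 142751 and 145793 bases with 9 genes. The median distance between neighbouring X summits was 3293.5 bases in wt and 3848.5 in M1[wt] males. Genes fall more often into long stretches than into short ones, so a fairer comparison is with other X-linked genes that hold no summit. Those lay in stretches with a median of 54323 bases in wt and 49742 in M1[wt] males, shorter than each of the members' 3 stretches. Of those other genes 31.5% in wt and 27.0% in M1[wt] males lay in stretches at least as long as the members' median.

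The peaks next to the X-linked members were of mixed strength. In wt males their −log10 p was 13.6 beside Cpr5C, 10.8 beside Cpr11A, 15.5 beside Cpr11B and 52.2 beside Cpr12A. All but the last were below the median of 22.2 over wt X peaks. In M1[wt] males the values were 1188, 32.2, 182.6 and 62.5, with a median of 36.6 over X peaks. The M1[wt] peak nearest to Cpr5C ranked 74 in its list and lay in CG42699, while the wt summit nearest to Cpr5C lay in CG15767. The value of a peak grows with read depth, which is unknown here, so the lists are not compared in strength.

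**Figure D2:**
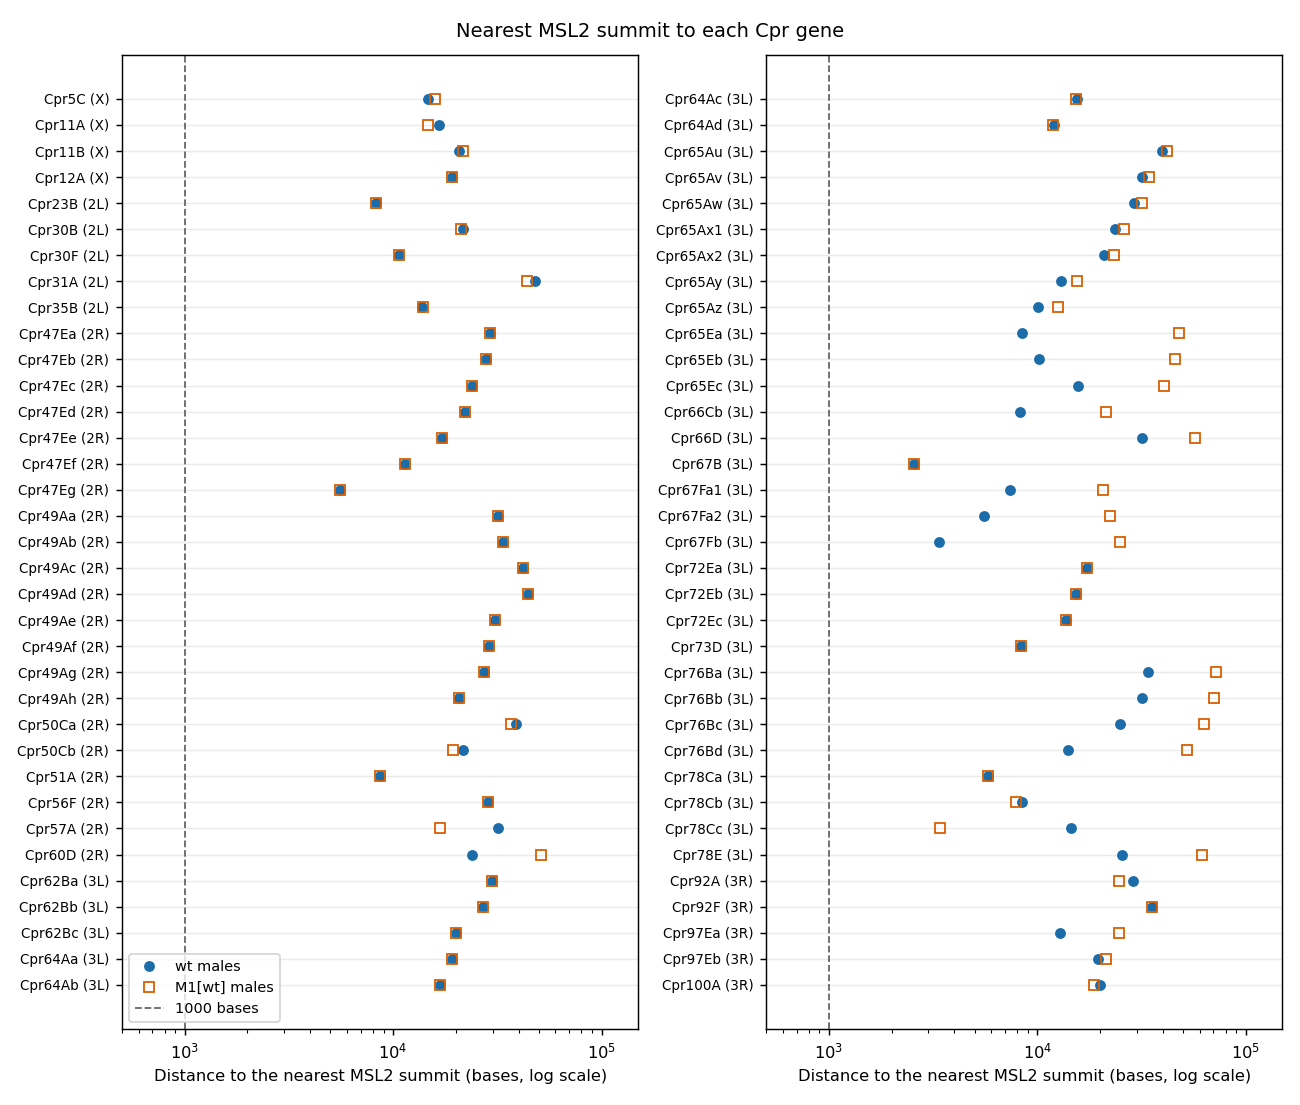
Distance in bases (horizontal axis, log scale) from each of the 70 Cpr genes (vertical axis, in order along the X, 2L, 2R, 3L and 3R) to the nearest MSL2 summit in wt males (filled circles) and M1[wt] males (open squares); the dashed line marks 1000 bases. Every gene lies to the right of the line, from 2574 to 48144 bases in wt and from 2568 to 72264 bases in M1[wt] males.

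On the autosomes the members lay at middling distances from MSL2 summits, neither next to them nor very far away. Their median distance was 20417.5 bases in wt and 23660 in M1[wt] males. Other autosomal genes had medians of 9490 and 8386 bases, and those of like length 12165 and 10996. Within 10 kb of a summit lay 12 of 66 members in wt males (18.2%, against 51.1% of other autosomal genes) and 8 of 66 in M1[wt] males (12.1% against 53.7%). At the far end, none lay more than 50 kb from a summit in wt and 7 did in M1[wt] males. The farthest were Cpr31A in wt males, 48144 bases from a summit in Ndf, and Cpr76Ba in M1[wt] males, 72264 bases away.

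The members also differed in this from the other autosomal genes that had no peak by the same rule. Of 9041 such genes in wt males 20.1% lay between 1000 and 5000 bases from a summit and 17.2% beyond 50 kb, against 3.03% and 0% of the members. Between 20 and 50 kb lay 24.5% of them and 51.5% of the members. In the M1[wt] list 21.4% of 8839 genes lay between 1000 and 5000 bases and 19.1% beyond 50 kb, against 3.03% and 10.6% of the members. The members share neighbourhoods, with 66 genes in 29 stretches between summits in each list, so they are not 66 separate observations. The stretches themselves were not longer than those of other autosomal genes without a summit inside in wt males, with medians of 73222 bases for the members and 81886 for the others. The M1[wt] medians were 91008 and 80549 bases.

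Counted in genes, the autosomal members sat deeper inside these stretches. The nearest protein-coding gene with a peak was a median of 4.5 genes away in wt and 6 in M1[wt] males, against 3 for other autosomal genes without a peak in each list. In wt males 5 members had a peak-bearing gene as a direct neighbour in gene order, namely Cpr51A, Cpr64Ad, Cpr67B, Cpr67Fb and Cpr78Ca, or 7.58% against 24.8% of the other genes. With the M1[wt] list Cpr78Cc took the place of Cpr67Fb, and the shares were 7.58% and 26.0%. The deepest was Cpr49Ae, 15 genes away in both lists. The genes passed on the way include other members of the same cluster, which have no peak either. Autosomal members also had a median of 5 other protein-coding genes within 10 kb on each side, against 4 for other autosomal genes. The part of clustering and gene density in these counts was not tested.

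Many Cpr genes lie in clusters, which were taken as 3 or more members with gaps of at most 20 kb between neighbours. There were 10 clusters with 45 members (8 clusters with 28 members for gaps of at most 5 kb), 2 on chromosome 2R and 8 on 3L. Their spans add up to 169452 bases, and no summit of either list fell inside them. The spans also hold 24 other protein-coding genes, and 0 of these had a peak in wt and 0 in M1[wt] males. That is no separate result, since it largely follows from spans without a summit. The summit closest to any cluster lay 3393 bases away in wt and 3420 in M1[wt] males. Among the 24 are 10 genes of the same domain family in the Cpr65A cluster, the larval Lcp65A genes and Acp65Aa, and Edg78E in the Cpr78C cluster.

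**Figure D3:**
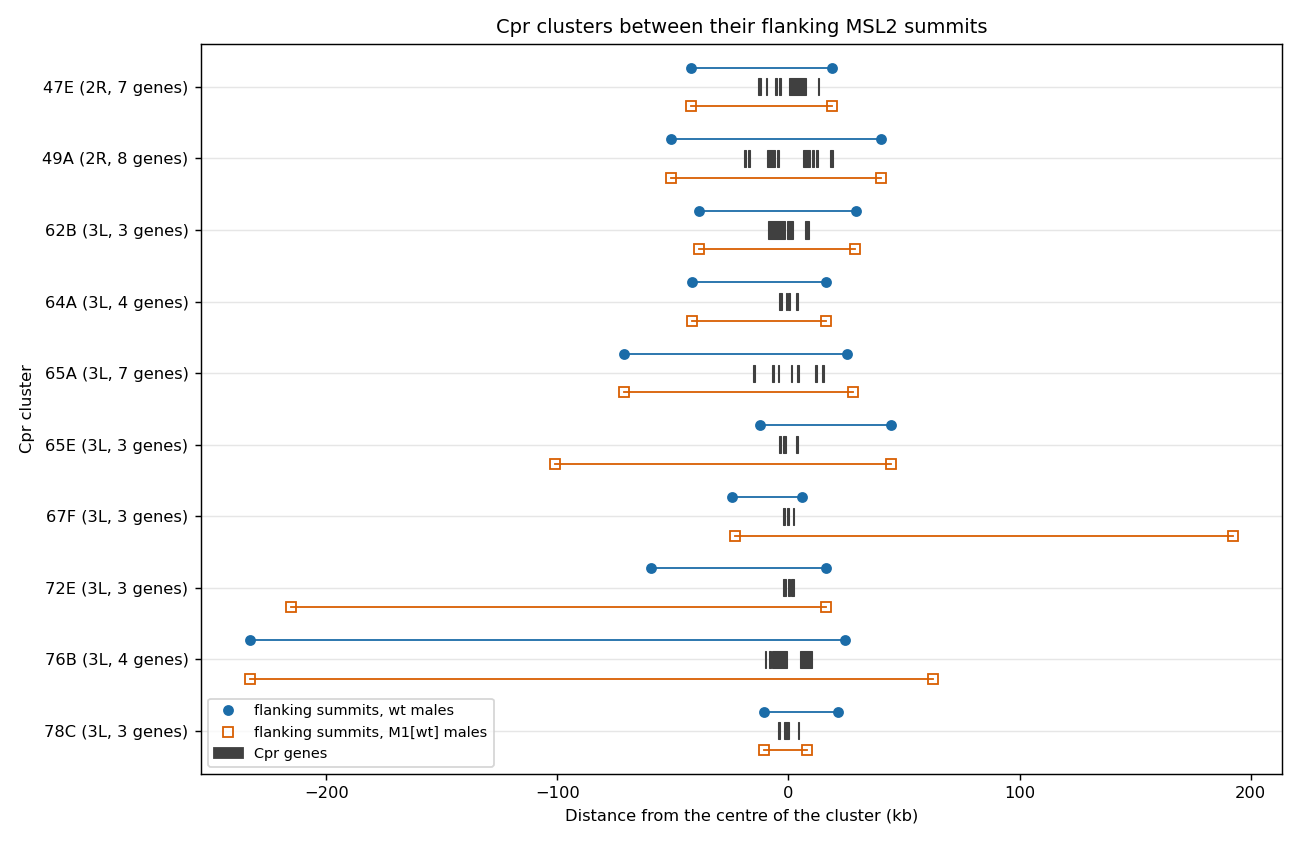
The 10 clusters (vertical axis, by cytological position with chromosome and number of genes) with each Cpr gene as a dark box and the flanking MSL2 summits joined by a line, in wt males (filled circles, above the genes) and M1[wt] males (open squares, below); the horizontal axis is the distance from the centre of the cluster in kb. No summit lies between the genes of a cluster, and the lines differ most between the lists at Cpr65E, Cpr67F and Cpr72E.

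On 2R the Cpr47E cluster (Cpr47Ea to Cpr47Eg, 7 genes) lay between summits 28992 bases to its left, near CG7737, and 5531 bases to its right, near CG9062, in wt males. The M1[wt] distances were 28987 and 5551 bases. The distance from the nearest summit thus ran along the cluster from 5531 bases at Cpr47Eg to 28992 at Cpr47Ea in wt males. The Cpr49A cluster (Cpr49Aa to Cpr49Ah, 8 genes) is the largest and lay 31732 bases from a summit near ana3, a centriole protein gene, and 20709 bases from one in DUBAI. The M1[wt] list gave 31747 and 20717 bases. The stretch around it was 90985 bases long in wt and 91008 in M1[wt] males, and each held 30 protein-coding genes.

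On 3L the Cpr65A cluster (Cpr65Au to Cpr65Az, 7 genes) lay in a stretch of 96443 bases in wt and 98851 in M1[wt] males. Its nearest summits were 10062 bases to the right, in fmt, in wt and 12568 bases to the right, beside CG7376, in M1[wt] males. The Cpr62B and Cpr64A clusters differed little in position between the lists. Cpr62Bc was the nearest member of the first, 20126 and 20017 bases from a summit in Rap1, which encodes a small GTPase. Cpr64Ad was that of the second, 11971 and 11878 bases from a summit in ImpL2, which encodes a secreted antagonist of insulin signalling.

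The Cpr78C cluster lay beside a strong peak. Cpr78Ca was 5816 bases from a summit beside pzg, a gene of a chromatin protein, with a −log10 p of 285.2 and rank 199 in wt males. The M1[wt] list had it at 5818 bases, with 693.3 and rank 141. On the other side the nearest wt summit was 16885 bases away beside Pc, the Polycomb gene, and the nearest M1[wt] summit 3420 bases away in CG11309. The stretch of 18549 bases around this cluster in M1[wt] males was 1.03 times the median for the chromosome arm, and the one of 32012 bases in wt males 1.36 times. The Cpr78C cluster had no peak, and the distance between its flanking peaks was near the 3L median in M1[wt] males. In both lists that distance was short beside the stretches around other autosomal genes without a summit inside. Those had medians of 81886 bases in wt and 80549 in M1[wt] males.

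A stretch that holds a whole cluster cannot be shorter than its span, and genes fall more often into long stretches. Ratios above 1 are therefore partly fixed in advance. The Cpr47E span alone, 26695 bases, exceeds the 2R median of 16559.5 bases in wt males. At the other clusters the stretch was between 1.27 times the arm's median, at Cpr67F with 29998 bases, and 10.9 times in wt males. The M1[wt] ratios apart from Cpr78C were 3.19 or more, with 11.9 at Cpr67F (215497 bases). The Cpr76B cluster (Cpr76Ba to Cpr76Bd) lay in the longest, 257257 bases in wt and 295570 in M1[wt] males, or 10.9 and 16.3 times the median for 3L. Stretches at least this long numbered 14 of 504 on the arm in wt and 16 of 538 in M1[wt] males. Its nearest summit was 13997 bases away in wt males, in Ltn1, a gene of a ubiquitin ligase that acts on stalled ribosomes. In M1[wt] males it was 52307 bases away.

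The lists differed most at the Cpr65E, Cpr67F, Cpr72E and Cpr76B clusters, where a wt peak below the median strength of its list, 22.5, had no M1[wt] peak near it. At Cpr65E the wt summit 8484 bases from Cpr65Ea had a −log10 p of 8.04, near the lowest value of 7.72 in that list, and the nearest M1[wt] summit was 40532 bases from Cpr65Ec. At Cpr67F the wt summit in Aps lay 3393 bases from Cpr67Fb (18.6), and the nearest M1[wt] summit was 20677 bases from Cpr67Fa1. At Cpr72E the nearest summit lay in Agpat4 in both lists, 13672 and 13682 bases from Cpr72Ec, which encodes a protein of the corneal lens. The wt summit on its other side, 57151 bases away (8.93), had its M1[wt] counterpart only at 212861 bases. At Cpr76B the wt summit in Ltn1 had a value of 10.9. The lists end at different lowest values, so a weak peak in 1 list alone is no measure of binding gained or lost.

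Of the 25 members outside clusters, 4 are the X-linked genes and 21 lie on the autosomes. Cpr67B was the closest of all members to a peak. Its nearest summit lay in eIF4E1, the gene of the cap-binding translation factor, with a −log10 p of 33.7 in wt and 28.8 in M1[wt] males. It lay in a stretch of 20444 bases in wt and 7962 in M1[wt] males, and the latter is the shortest around any member. Besides Cpr73D, Cpr51A, 8623 and 8624 bases from a summit beside Asx, a Polycomb group gene, and Cpr23B, 8260 and 8258 bases from one in the NADPH oxidase gene Duox, were also within 10 kb in both lists.

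Cpr66Cb was 8215 bases from a summit in GAPcenA in wt males and 21427 from one in Cpsf6 in M1[wt] males. Several single members lay more than 20 kb away in both lists. Cpr66D, another gene of a corneal lens protein, lay 31779 bases from the nearest summit in wt and 56940 in M1[wt] males. Cpr60D lay 24009 and 51046 bases away, and Cpr78E 25540 and 61778. Cpr57A went the other way, with 31966 bases in wt males, from a summit in qsm with a value of 8.22, and 16841 in M1[wt] males. On 3R the members Cpr92A, Cpr92F, Cpr97Ea, Cpr97Eb and Cpr100A lay between 12913 and 35425 bases away in wt and between 18736 and 35409 in M1[wt] males.

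The peaks nearest to the autosomal members were 32 different peaks in wt and 33 in M1[wt] males. Their median −log10 p was 23.6 in wt males, against 23.0 over all autosomal peaks, and 57.6 in M1[wt] males, against 34.6. Below the median of their list were 15 of the 32 in wt and 9 of the 33 in M1[wt] males. Within 500 bases of a gene end lay 62.5% of them in wt and 66.7% in M1[wt] males, against 57.5% and 57.1% of all autosomal peaks.

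Other genes of cuticle structure were set beside the Cpr genes. A list of 28 autosomal genes with other names that carry the domain held the larval Lcp genes, the Ccp84A genes, Pcp, a pupal cuticle gene, and resilin, which encodes a rubber-like protein. In wt males 1 of the 28 had a peak, Ccp84Ag on 3R with a summit inside the gene and a −log10 p of 13.1, whereas 0 of 28 had one in the M1[wt] list. Other autosomal genes of like length had a peak in 10.2% and 11.5% of cases. The list is not separate from the Cpr genes. It includes the Lcp65A genes and Acp65Aa, in the same stretch as the Cpr65A cluster, and Edg78E within the Cpr78C cluster. Lcp1 to Lcp4 and the Ccp84A genes also lie side by side. The Tweedle genes, a family of cuticle proteins without this domain, had a peak at 0 of 22 autosomal and 0 of 4 X-linked members in each list. The like-length shares were 13.2% and 16.1% on the autosomes, and 36.8% and 33.5% on the X. Most of the autosomal Tweedle genes lie together on 3R, and the 4 X-linked ones lie together as well. They are therefore not separate observations, and their counts stand for few neighbourhoods. The X-linked TwdlX came closest, 2421 and 2438 bases from a summit. The obstructor genes, whose products bind chitin through another domain, had a peak at 0 of 8 autosomal members and not at the X-linked obst-A, 4243 and 3499 bases away. Like-length shares were 20.1% and 22.9% on the autosomes and 57.3% and 56.4% on the X.

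Genes that make or modify chitin and those that harden and colour the cuticle did carry some peaks, whose −log10 p stands in parentheses. Of 15 autosomal chitin genes 2 had one in wt males, Gfat2 (44.9) and Cht2 (15.3), and 2 in M1[wt] males, Gfat2 (34.95) and mmy (14.9). Gfat2 and mmy act in the synthesis of the chitin precursor, and Cht2 encodes a chitinase. In wt males the nearest summit to mmy lay 1086 bases away, just outside the distance used. The share of the autosomal chitin genes, 13.3% in each list, stands beside 33.1% and 34.7% of other genes of like length. Of 4 on the X, rtv (22.0 and 23.0), needed to order chitin fibres, and Cht11 (11.7 and 12.1) had a peak in both lists, beside like-length shares of 58.1% and 59.9%. Of 7 autosomal tanning genes, Pu (48.96 and 61.9), which makes a cofactor of tyrosine hydroxylase, had one in each list and speck (18.6) in M1[wt] males, beside like-length shares of 35.2% and 36.7%. On the X t (45.8 and 69.6), the tan gene, had one and y, the yellow gene, did not, beside shares of 71.2% and 68.0%.

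**Figure D4:**
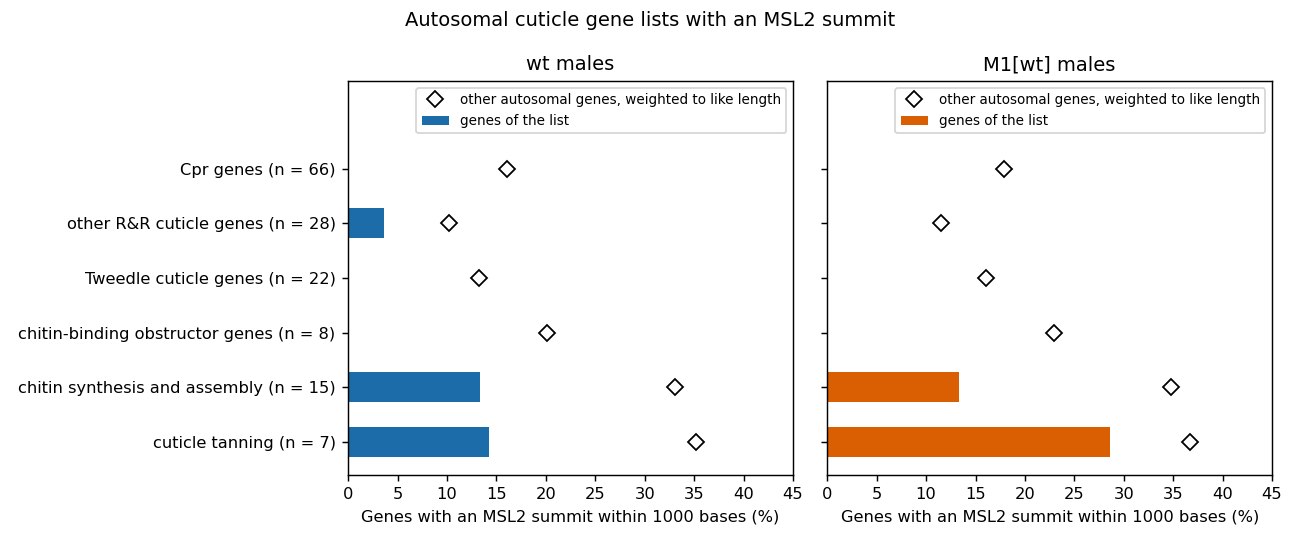
Share of autosomal genes with an MSL2 summit in the gene or within 1000 bases (horizontal axis, %) for the Cpr genes and 5 other lists of cuticle genes (vertical axis, with the number of genes), in wt males (left) and M1[wt] males (right); bars are the genes of the list, open diamonds other autosomal genes weighted to the lengths of that list. Cpr, Tweedle and obstructor genes have no bar in either panel, and every bar ends to the left of its diamond.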

How the data were processed

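MSL2 peak lists of wt males and M1[wt] males were used, grouped by sample title. Per the submitters' processing notes, the tools were MACS2, Bowtie2, cutadapt, deepTools and Picard, and the builds dm6 and dm3, with no roles given. Positions were read in dm6 (Release 6), since the lists' chromosomes carry dm6 names, and are printed 1-based. The lists, as deposited by the authors, have 20 columns in the layout of 2 joined replicate calls: a score, a −log10 p for the peak and for each call, and a −log10 of the irreproducible discovery rate (IDR). The labels do not say whether the calls are separate libraries. Peaks on other sequences (11 wt, 9 M1[wt]) were left out.

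Gene positions came from an NCBI RefSeq table of Release 6. Distances run from the gene body to the nearest summit. Like-length shares weight other genes of the chromosome class by 10 length classes. Of the 5 cuticle lists all 91 genes matched, 1 by synonym (aaNAT1, printed as speck). The members and lists were chosen with earlier results of these data known. The genes to name were set by a rule (members with a peak, X-linked members, members 1000 to 2000 bases from a summit, and the strongest members of each other list). No member had a peak or a summit that near, so other members were named after their values were seen. No set test was run. Sequences were not used here, so planned motif and domain searches were left out. The distance and weighting code was tested on simulated data. Python 3.11.15, pandas 2.3.3 and scipy 1.17.1 were used.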

Additional observations from a re-analysis of the deposited data

How the results depend on the processing

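The count of Cpr genes with a peak was 0 in each list and chromosome class with summits inside genes, with margins of 500 and 2000 bases, with any base of the peak interval, at a −log10 global IDR of at least 2, at a −log10 p of at least 50, and with the summits of either replicate call, an alternative added after seeing the data. With a margin of 5000 bases it was 2 on the autosomes in each list and 0 on the X. The like-length share on the X was 39.7% in wt males with 20 length classes, 39.6% (wt) and 35.3% (M1[wt]) with genes within 20% of each member's length, and 34.99% in M1[wt] males with 5 classes. With classes of length and local gene density, added after seeing the data, it was 23.1% and 21.9%. With 4 members, the X share rests on few length classes. Autosomal like-length shares lay between 15.8% and 17.9% under these settings. At a −log10 p of at least 50 the median distance in wt males was 22853.5 bases for X-linked and 39002 for autosomal members, and in M1[wt] males 32034 for autosomal members, since fewer peaks remain. The other 67 alternative values were labelled as unchanged. Among them, shares and median distances lay within the intervals of the main values, counts of 0 stayed 0, and the numbers of clusters stayed close. Clusters numbered 8 (28 members) with gaps of at most 5 kb and 10 (45 members) with 50 kb, with 0 summits inside. No paired analysis was possible because each group has 1 sample. Read depth is unknown, so absence of a peak is not absence of binding.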

Other observations

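Gene families were also compared by the letters of their symbols before a digit, a grouping chosen after the Cpr values were seen. On the autosomes 22 families had at least 20 protein-coding members. In 3 of them no member had a peak in either list: the 66 Cpr genes, 25 Osi genes (Osiris, a family of insect membrane proteins) and 28 Sfp genes, which encode seminal fluid proteins. Over all autosomal protein-coding genes the share was 22.3% in wt and 24.1% in M1[wt] males. Families were not weighted by length, and the Sfp genes are short, with a median of 447.5 bases. In wt and M1[wt] males the His genes had 2 and 2 of 114 and the odorant receptor genes (Or) 1 and 2 of 51. The Ugt genes of glycosyl transfer had 1 and 1 of 35, and the odorant-binding protein genes (Obp) 2 and 1 of 45. The Ir genes had 2 and 2 of 49, the Cyp genes 3 and 4 of 70, and the Gr genes 3 and 2 of 54. At the other end the ribosomal protein families RpS and RpL had 46.7% and 38.6% in wt males. By median distance from a summit the Cpr genes came 9th of the 22 in wt males and 7th in M1[wt] males. The Or genes lay at 42952 and 36911 bases, the Osi genes at 22867 and 100143 and the Sfp genes at 23657 and 17373. All 3 families without a peak lay farther out than autosomal genes other than Cpr, whose medians were 9490 (wt) and 8386 (M1[wt]) bases. They were not always the farthest, since in wt males the Or genes, with 1 peak-bearing member, lay farther than all 3. Members of a family often lie side by side, and no test was made between families.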
